A study of Mus musculus with 28 samples.

Results

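The genes described here make, break down or sense prostaglandins and their close relatives. They are 10 genes chosen by name: the cyclooxygenases Ptgs1 and Ptgs2, the terminal synthases Ptges, Hpgds and Tbxas1, the inactivating enzymes Hpgd and Ptgr1, the prostaglandin E2 receptors Ptger2 and Ptger4, and Alox5ap of the leukotriene branch. All 10 were found in the count tables, once each, among 54427 named entries of which 29066 had a count in at least 1 of 28 libraries. All 10 also passed the filter on low counts in every comparison below.

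Prostaglandins are short-lived lipid signals made from arachidonic acid that is released from membranes. A cyclooxygenase turns the acid into a common intermediate, and a terminal synthase then decides which product is formed: prostaglandin E2, prostaglandin D2, thromboxane A2 or prostacyclin. Microglia, the resident macrophages of the brain, are a known source of these lipids in inflamed nervous tissue, and the dehydrogenase Hpgd ends the signal by oxidising prostaglandin E2.

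The libraries came from cultured primary mouse microglia and were made with a 3′ messenger RNA kit, which reads the end of each transcript. The mice carried APOE3, labelled WT for genotype, or APOE3S/S, labelled Christchurch after the APOE variant of that name. The cells received nothing (labelled Control), tau or amyloid, and the study's title places the comparison in work on resilience to tau. The 6 groups held 6 untreated, 6 tau and 3 amyloid libraries for APOE3, and 4 untreated, 6 tau and 3 amyloid libraries for APOE3S/S. The labels give no dose, exposure time, age or sex, and do not say whether the libraries of a group are separate cultures or animals. The p-values below therefore measure the spread between these libraries, which may be technical.

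Sample titles fall into 2 series: 17 titles end in SAN and 11 do not, the latter called the second title series here. What the ending stands for is not given in the sources used here. Both series hold untreated and tau libraries of both genotypes, and all amyloid libraries carry SAN titles. Library totals ran from 14464761 to 18683896 counts in the SAN series and from 15967897 to 27220695 counts in the second series. All 8 microglial markers were detected, with a summed level of 5800 to 9070 CPM (counts scaled to a common library total), although Tmem119 stood at only 0.91 to 5.83 CPM and P2ry12 at 9.38 to 30.8 CPM. Markers of border macrophages (Mrc1, Pf4, Cd163, Lyve1) summed to 894 to 1400 CPM in the SAN series and 2210 to 3370 CPM in the second series. The 2 series did not overlap in this sum, most of which was Pf4 (477 to 2810 CPM) and Mrc1 (348 to 891 CPM). Cd163 reached at most 7.78 CPM, and Lyve1 was counted in 6 of 28 libraries. The neuronal list stayed at or below 2.48 CPM and the fibroblast list at or below 42.3 CPM. The astrocyte list summed to 22.9 to 71.9 CPM, with Aldh1l1 at 20.0 to 64.1 CPM and each other marker at or below 8.4 CPM. The oligodendrocyte list summed to 95.4 to 165 CPM, most of it Mbp (87.9 to 127 CPM). The endothelial list summed to 25.7 to 70.3 CPM, most of it Flt1 (24.7 to 69.4 CPM), with Cldn5 at 0 in every library. The mast cell list summed to 0.077 to 1.63 CPM, with Cpa3 counted in 28 libraries, Kit in 22 and Mcpt4 and Fcer1a in none.

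Stretches of 250 bases before the transcription start are shown for Ptgs2, Ptges and Hpgd, the inducible cyclooxygenase, the prostaglandin E2 synthase and the inactivating dehydrogenase, whose levels differed most between untreated and tau libraries. They are RefSeq sequences of mouse build GRCm38.p6, written 5′ to 3′ on the gene's own strand, and capitals mark matches to the letters TTNNGNAA, a loose form of the C/EBP motif, on either strand. The Ptgs2 window lies at chr1:150099781-150100030 on the plus strand, that of Ptges at chr2:30903298-30903547 on the minus strand, and that of Hpgd at chr8:56294302-56294551 on the plus strand. These RefSeq starts can differ from the ends of the GENCODE gene spans given below: the Ptges window lies inside its span, which begins further upstream.
Ptgs2: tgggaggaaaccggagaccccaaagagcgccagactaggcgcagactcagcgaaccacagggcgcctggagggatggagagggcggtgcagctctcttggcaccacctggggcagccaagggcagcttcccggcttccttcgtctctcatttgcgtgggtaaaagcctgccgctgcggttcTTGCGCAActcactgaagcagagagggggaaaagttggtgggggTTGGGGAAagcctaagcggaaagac
Ptges: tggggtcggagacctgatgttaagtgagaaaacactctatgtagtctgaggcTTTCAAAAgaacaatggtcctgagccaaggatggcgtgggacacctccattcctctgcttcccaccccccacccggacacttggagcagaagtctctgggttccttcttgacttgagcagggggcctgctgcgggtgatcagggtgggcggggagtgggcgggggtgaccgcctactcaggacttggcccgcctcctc
Hpgd: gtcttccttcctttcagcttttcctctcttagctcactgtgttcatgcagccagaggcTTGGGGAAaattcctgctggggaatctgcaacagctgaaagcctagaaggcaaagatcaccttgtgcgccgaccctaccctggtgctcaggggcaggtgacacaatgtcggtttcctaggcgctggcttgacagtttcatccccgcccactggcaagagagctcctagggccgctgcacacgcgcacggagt

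The Ptgs2 window held TTNNGNAA at 69 to 62 and at 25 to 18 bases before the start, the first match reading the same on both strands. A single match lay 198 to 191 bases before the start of Ptges and another 192 to 185 bases before that of Hpgd. These letters occur in 36.8% of 32851 windows of the same length, so their presence sets none of the 3 genes apart. None of the 3 windows held TATAAA (found in 12.4% of windows), the NF-kB motif (7.25%), TNACGTCA of the CRE (2.52%), TGANTCA of AP-1 (6.75%), GAGGAAG of PU.1 (10.6%) or the interferon response element (2.98%). A window was at hand for 9 of the 10 genes, all but Alox5ap.

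Tau libraries of APOE3 microglia had more Ptges and less Hpgd message than untreated ones. The messages of an inducible prostaglandin E2 synthase and of the enzyme that inactivates prostaglandin E2 thus moved in opposite directions. Over both title series, with the series as a term in the edgeR quasi-likelihood fit, 5 of the 10 genes passed an adjusted p of 0.05. Ptgs1, Ptges and Alox5ap rose, and Hpgd and Hpgds fell. In the same comparison 14.8% of 13905 tested genes were called, 8.98% higher and 5.87% lower. In APOE3S/S microglia 3 of 10 passed: Ptgs2 and Ptges rose and Hpgd fell, where 3.28% of all tested genes were called, 2.14% higher and 1.14% lower. The median log2 fold change of the 10 genes was 0.30 in APOE3 and 0.10 in APOE3S/S, against -0.02 and -0.01 over all genes. Lower message in such bulk libraries can reflect fewer cells of a type or less RNA per cell, and the 2 cannot be told apart.

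**Figure D1:**
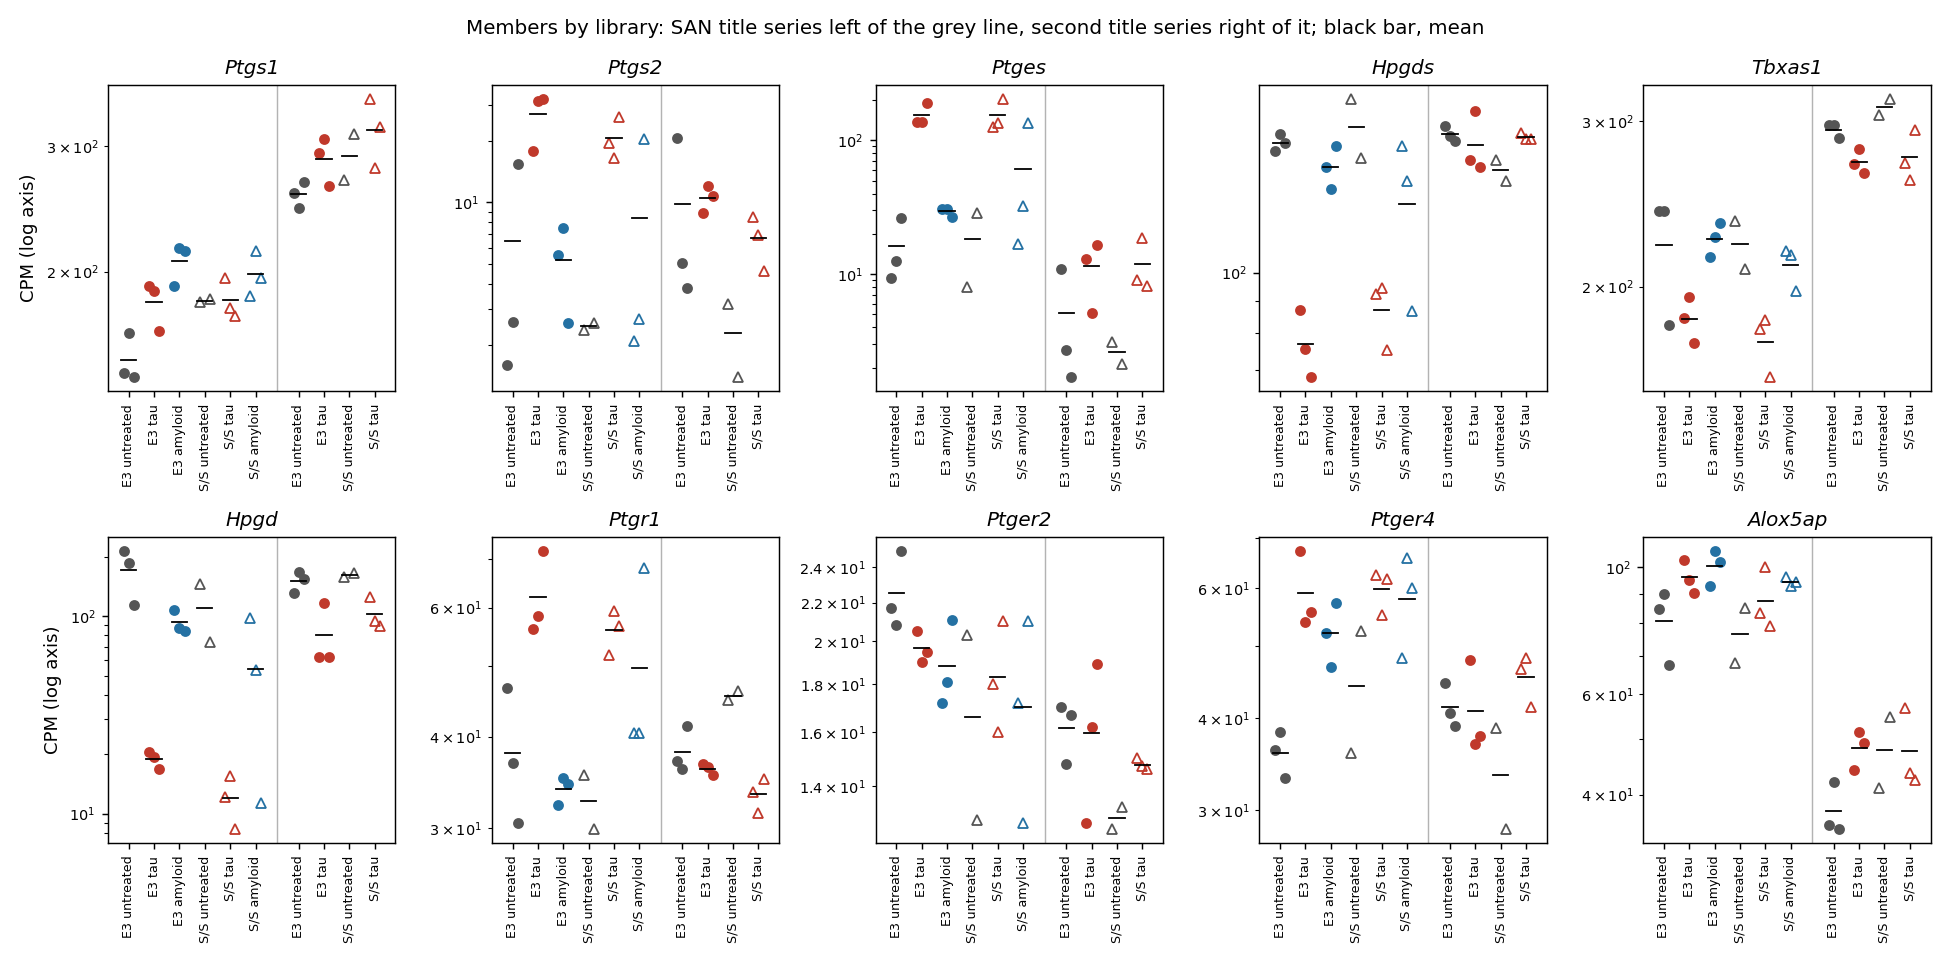
Level of each of the 10 genes in CPM (log axis) in every library, by group; filled circles are APOE3 (E3), open triangles APOE3S/S (S/S), grey untreated, red tau, blue amyloid, and black bars group means. In the SAN series Ptges stands at 126 to 204 CPM in the 6 tau libraries and at 8.05 to 28.8 CPM in the 5 untreated ones, while Hpgd lies at 8.34 to 20.6 CPM against 74.1 to 215 CPM.

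Ptgs1, the constitutive cyclooxygenase (chromosome 2, 36230426 to 36252272 in GRCm38), read 144, 164 and 142 CPM in the untreated APOE3 libraries of the SAN series and 191, 188 and 165 CPM in the tau libraries. Second-series libraries read 258, 246 and 267 CPM without and 294, 307 and 264 CPM with tau. All SAN tau libraries lay above the untreated ones by a small margin, and the second series overlapped. Ptgs1 rose by a log2 fold change of 0.26 ± 0.07 (SE), a 1.20-fold difference (adjusted p = 0.0159). In APOE3S/S the values were 181 and 183 CPM untreated against 196, 178 and 173 CPM with tau in the SAN series, and the log2 fold change over both series was 0.07 ± 0.08 (adjusted p = 0.698). The larger contrast for this gene was between title series, with every second-series library above every SAN library.

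Ptgs2, the inducible cyclooxygenase (chromosome 1, 150100031 to 150108227), was low in most untreated libraries but not in all. Untreated APOE3 libraries read 1.59, 2.58 and 15.3 CPM in the SAN series and 20.5, 5.06 and 3.82 CPM in the second series. Tau libraries read 17.7, 31.3 and 32.0 CPM in the SAN series and 8.86, 12.0 and 10.7 CPM in the second. Replicates 3 and 4 of the untreated group stood far above the other 4, and replicate 4 exceeded all 3 tau libraries of its own series.

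With these libraries included the Ptgs2 log2 fold change in APOE3 was 1.03 ± 0.49 (adjusted p = 0.180), which did not pass. Without untreated replicate 4 it was 1.76 (adjusted p = 0.00525), and limma-voom gave 1.72 on all libraries (adjusted p = 0.0122). Within the SAN series it was 2.18 ± 0.58, a 4.53-fold rise (adjusted p = 0.0193), and within the second series 0.12 ± 0.47. In APOE3S/S all 4 untreated libraries were low, at 2.38, 2.56, 3.19 and 1.39 CPM. Tau libraries there read 19.4, 16.5 and 26.1 CPM in the SAN series and 8.46, 6.88 and 4.63 CPM in the second, above every untreated library. This was a 5.15-fold rise (log2 2.36 ± 0.62, adjusted p = 0.0406). The call was narrow: limma-voom gave an adjusted p of 0.0522, and it was lost in 8 of 22 fits that left out 1 library each (any untreated APOE3S/S library, or tau replicate 1, 2, 4 or 6), with adjusted p up to 0.124.

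Ptges, the inducible synthase of prostaglandin E2 (chromosome 2, 30889471 to 30929863), had the largest rise among the 10 genes. In the SAN series the untreated APOE3 libraries read 9.38, 12.6 and 26.3 CPM and the tau libraries 136, 138 and 191 CPM. Values of the second series were 11.0, 2.72 and 1.69 CPM untreated against 12.9, 5.14 and 16.4 CPM with tau. The SAN groups were far apart, and in the second series 1 untreated library lay between the tau libraries.

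Over both series Ptges was 4.97-fold higher with tau in APOE3 (log2 2.31 ± 0.49, adjusted p = 0.0023) and 6.54-fold higher in APOE3S/S (2.71 ± 0.56, adjusted p = 0.0148). The SAN series alone gave 10.4-fold and 8.71-fold, and the second series alone 2.30-fold (adjusted p = 0.378) and 4.39-fold (adjusted p = 0.103). APOE3S/S libraries read 8.05 and 28.8 CPM untreated against 126, 134 and 204 CPM with tau in the SAN series. Second-series libraries read 3.10 and 2.14 CPM against 8.99, 18.5 and 8.12 CPM, with no overlap in either series. The APOE3 call was kept when any 1 of the 22 libraries was left out (adjusted p up to 0.0102). The APOE3S/S call was lost without untreated APOE3S/S replicate 1 (adjusted p = 0.075). Ptges2 and Ptges3, also synthases of prostaglandin E2, did not pass in either genotype. Their log2 fold changes were -0.02 ± 0.12 and -0.02 ± 0.10 in APOE3, and -0.04 ± 0.14 and 0.07 ± 0.11 in APOE3S/S. Over all libraries they read 15.0 to 30.0 CPM and 46.7 to 71.1 CPM.

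Hpgds, which makes prostaglandin D2 (chromosome 6, 65117293 to 65144908), fell in the SAN series and not in the second. Untreated APOE3 libraries read 156, 166 and 161 CPM in the SAN series, and tau libraries 87.3, 75.7 and 68.1 CPM. The second series read 171, 165 and 162 CPM untreated and 151, 181 and 147 CPM with tau, which overlapped. The log2 fold change over both series was -0.51 ± 0.16 in APOE3 (adjusted p = 0.0322) and -0.41 ± 0.18 in APOE3S/S (adjusted p = 0.195). Within the SAN series it was -0.98 ± 0.12 (adjusted p = 0.00034) and -0.90 ± 0.13 (adjusted p = 0.0040). The pooled APOE3 call was lost without any 1 of the 6 SAN libraries of the comparison, untreated replicates 1 to 3 and tau replicates 4 to 6 (adjusted p up to 0.0935).

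Tbxas1, the thromboxane synthase (chromosome 6, 38875404 to 39084585), did not pass in either genotype. In APOE3 it read 241, 241 and 182 CPM untreated and 185, 195 and 174 CPM with tau in the SAN series, and 297, 297 and 288 CPM against 270, 280 and 264 CPM in the second. Tau libraries of APOE3 were below untreated ones in the second series, by a small margin, and overlapped them in the SAN series. APOE3S/S read 235 and 209 CPM untreated against 180, 184 and 160 CPM with tau in the SAN series. In the second it read 305 and 317 CPM against 271, 260 and 294 CPM, without overlap in either series. The log2 fold changes were -0.15 ± 0.07 in APOE3 (adjusted p = 0.197) and -0.25 ± 0.08 in APOE3S/S (adjusted p = 0.0878); DESeq2 gave an adjusted p of 0.0365 for the latter.

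Hpgd, the dehydrogenase that inactivates prostaglandin E2 (chromosome 8, 56294585 to 56321043), had the largest fall. Untreated APOE3 libraries of the SAN series read 215, 187 and 114 CPM and tau libraries 20.6, 19.3 and 16.9 CPM. In the second series the values were 131, 167 and 155 CPM untreated and 61.9, 117 and 61.8 CPM with tau. Every tau library lay below every untreated library of its series. APOE3S/S libraries read 146 and 74.1 CPM untreated and 12.1, 15.5 and 8.34 CPM with tau in the SAN series. The second series read 158 and 165 CPM against 125, 94.1 and 89.4 CPM, again without overlap.

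Over both series Hpgd fell 4.51-fold with tau in APOE3 (log2 -2.17 ± 0.43, adjusted p = 0.00148) and 3.30-fold in APOE3S/S (-1.72 ± 0.46, adjusted p = 0.0413). The SAN series alone gave an 8.58-fold fall in APOE3 and an 8.72-fold fall in APOE3S/S. The second series alone gave a 1.88-fold fall in APOE3 (adjusted p = 0.0335) and a 1.63-fold difference in APOE3S/S (adjusted p = 0.102). The APOE3 call was kept whichever library was left out (adjusted p up to 0.0062). The APOE3S/S call was lost in 12 of 22 such fits, with adjusted p up to 0.132. Those fits left out APOE3S/S untreated replicate 1, 3 or 4, APOE3S/S tau replicate 2, 4, 5 or 6, or APOE3 tau replicate 1, 3, 4, 5 or 6.

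Dividing Ptges by Hpgd counts within a library puts both changes into 1 value per library; it compares libraries, not the abundance of the 2 transcripts. The ratio ran from 0.0109 to 0.389 over the 10 untreated libraries. It ran from 6.57 to 24.5 in the 6 SAN tau libraries and from 0.0441 to 0.265 in the 6 second-series tau libraries. Within each series and genotype the lowest tau ratio lay above the highest untreated ratio, except in second-series APOE3, where tau replicate 2 (0.0441) lay below untreated replicate 4 (0.0839).

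**Figure D2:**
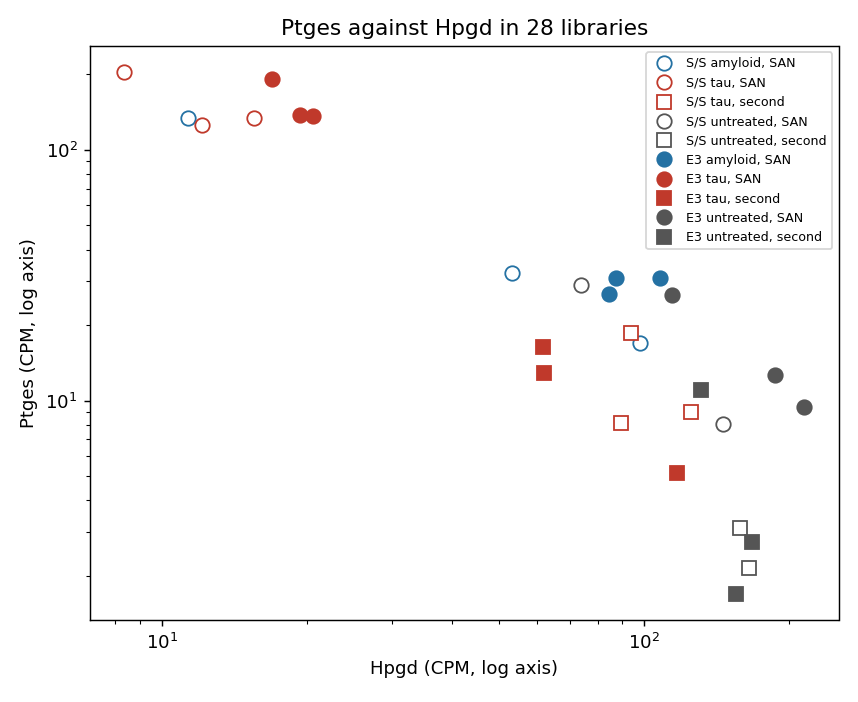
Ptges against Hpgd in CPM (both axes log) for the 28 libraries; circles are the SAN series, squares the second series, filled symbols APOE3 (E3), open symbols APOE3S/S (S/S), grey untreated, red tau, blue amyloid. The 6 SAN tau libraries and 1 APOE3S/S amyloid library (Ptges 134 CPM, Hpgd 11.3 CPM) lie at the upper left, apart from the other 21.

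Ptgr1, a reductase that acts on inactivated prostaglandins and on leukotriene B4 (chromosome 4, 58965439 to 58987119), moved with tau differently in the 2 series. In the SAN series untreated APOE3 libraries read 46.6, 36.8 and 30.5 CPM and tau libraries 56.1, 58.4 and 71.8 CPM. Second-series libraries read 37.1, 36.1 and 41.3 CPM and 36.7, 36.4 and 35.4 CPM. APOE3S/S read 35.4 and 29.9 CPM against 51.7, 59.4 and 56.6 CPM in the SAN series, where tau was higher. In the second series the order was turned, with 44.9 and 46.1 CPM untreated above 33.6, 31.5 and 35.0 CPM with tau. Ptgr1 rose in the SAN series by 0.79 ± 0.17 on the log2 scale in APOE3 (adjusted p = 0.00529) and by 0.84 ± 0.19 in APOE3S/S (adjusted p = 0.0274). In the second series it changed by -0.50 ± 0.11 in APOE3S/S (adjusted p = 0.0333) and was -0.06 ± 0.10 in APOE3. The values over both series, 0.36 ± 0.18 and 0.12 ± 0.21, did not pass and average over these.

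Of the prostaglandin E2 receptors, Ptger4 (EP4; chromosome 15, 5206661 to 5244187) was higher with tau in the SAN series of APOE3. Untreated libraries read 36.2, 38.3 and 33.2 CPM and tau libraries 67.4, 54.0 and 55.6 CPM, without overlap. The second series read 44.6, 40.7 and 39.0 CPM and 48.0, 36.9 and 37.8 CPM, with overlap. The SAN rise was 0.80 ± 0.15 on the log2 scale (adjusted p = 0.00312), and the value over both series was 0.37 ± 0.14 (adjusted p = 0.0678; DESeq2 gave 0.0464). In APOE3S/S the tau libraries read 62.4, 55.2 and 61.6 CPM against 35.9 and 52.4 CPM in the SAN series. The second series read 46.6, 48.2 and 41.4 CPM with tau against 38.8 and 28.3 CPM untreated, so neither series overlapped. The value over both series of APOE3S/S was 0.44 ± 0.15 (adjusted p = 0.108). Ptger4 shares 82 exonic bases with Ttc33 on the opposite strand, itself at 22.1 to 34.0 CPM, and the strand setting of the counting is not given in the sources used here.

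Ptger2 (EP2; chromosome 14, 44988195 to 45003820) stayed between 12.6 and 25.0 CPM in all 28 libraries. The tau log2 fold change was -0.07 ± 0.10 in APOE3 (adjusted p = 0.723) and 0.17 ± 0.11 in APOE3S/S (adjusted p = 0.420). The 2 remaining prostaglandin E2 receptors were low, with Ptger1 at 0.809 to 3.07 CPM and Ptger3 at 9 counts over all 28 libraries together. Of the receptors for other prostanoids, the prostacyclin receptor Ptgir was measured at 9.88 to 39.1 CPM. The others were nearly undetected: over all 28 libraries the prostaglandin D2 receptors Ptgdr and Ptgdr2 had 7 and 29 counts, Ptgfr 8 and the thromboxane receptor Tbxa2r 4. The same libraries held 160 to 317 CPM of Tbxas1 and 68.1 to 189 CPM of Hpgds, so the synthases of thromboxane A2 and prostaglandin D2 were measured where the messages of their receptors were close to 0.

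Alox5ap, the membrane protein that hands arachidonic acid to Alox5 for leukotriene synthesis (chromosome 5, 149264767 to 149288153), differed mostly by title series. Untreated APOE3 libraries read 84.5, 90.0 and 67.4 CPM in the SAN series and 35.4, 42.1 and 34.8 CPM in the second. Tau libraries read 103, 95.0 and 90.1 CPM and 44.1, 51.4 and 49.3 CPM, just above the untreated libraries of the same series. The rise was 0.34 ± 0.11 on the log2 scale, 1.27-fold (adjusted p = 0.0394). It was lost in 8 of 22 fits without 1 library (untreated replicate 3, 4 or 6, or tau replicate 2, 3, 4, 5 or 6; adjusted p up to 0.102), and each series alone gave a like value that did not pass (0.34 ± 0.15 and 0.37 ± 0.14). In APOE3S/S the value was 0.08 ± 0.12 (adjusted p = 0.763).

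The 2 title series were then compared directly, by testing whether the tau effect differed between them. In APOE3, 4 of 10 genes passed, against 5.19% of 14614 genes tested. The tau log2 fold change was more negative in the SAN series for Hpgd (difference -2.21 ± 0.39, adjusted p = 0.0024) and Hpgds (-0.96 ± 0.14, adjusted p = 0.00116). It was higher there for Ptgr1 (0.83 ± 0.20, adjusted p = 0.0185) and Ptger4 (0.78 ± 0.21, adjusted p = 0.0341). In APOE3S/S, 3 of 10 passed, against 0.903% (132 genes, a number that ran from 4 without untreated APOE3S/S replicate 1 to 1474 without untreated APOE3S/S replicate 3): Hpgd (-2.43 ± 0.44, adjusted p = 0.0106), Hpgds (-1.02 ± 0.16, adjusted p = 0.00871) and Ptgr1 (1.34 ± 0.22, adjusted p = 0.0104).

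For Ptges the difference was 2.15 ± 0.78 in APOE3 (adjusted p = 0.123) and 0.99 ± 0.92 in APOE3S/S, and for Ptgs2 it was 2.04 ± 0.83 (adjusted p = 0.173) and 1.63 ± 1.05. A difference of the tau effect between series was thus not shown for these 2 genes; without untreated APOE3 replicate 3 the Ptgs2 difference was 3.63 (adjusted p = 0.00745). Fitted separately, the SAN series gave 7 called genes of 10 in APOE3 and 5 in APOE3S/S, where 19.0% and 4.63% of all tested genes were called. The second series gave 1 of 10 in each genotype (Hpgd in APOE3, Ptgr1 in APOE3S/S), where 2.55% and 2.26% were called. The 3 APOE3S/S calls were lost without untreated replicate 1 of that genotype, and that of Hpgd also without untreated replicate 4. Each of these fits left 1 untreated APOE3S/S library in a title series. The differences themselves kept their direction over the 22 fits without 1 library. They ran from -2.81 to -1.91 for Hpgd, -1.14 to -0.91 for Hpgds and 1.26 to 1.42 for Ptgr1. In APOE3 the Ptgr1 difference was lost without untreated replicate 6 or tau replicate 6, and that of Ptger4 in 8 of 22 fits (untreated replicate 3, 4, 5 or 6, or tau replicate 2, 3, 4 or 6; adjusted p up to 0.103).

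**Figure D3:**
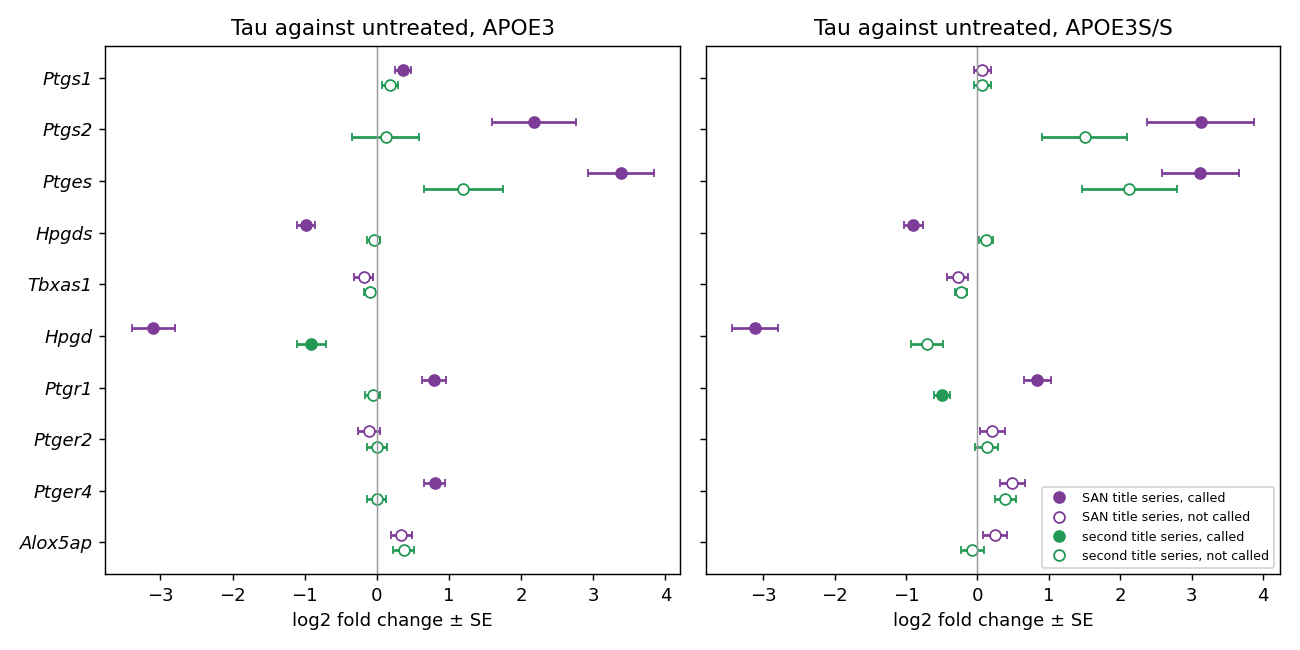
Log2 fold change of tau against untreated for the 10 genes, with standard errors, fitted in each title series alone; filled points passed an adjusted p of 0.05. In both genotypes Hpgd lies near -3.1 in the SAN series and between -0.91 and -0.71 in the second.

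Some markers of other cells differed between untreated and tau libraries inside the SAN series of APOE3. The border macrophage sum, mostly Pf4 and Mrc1, was 1040 to 1300 CPM untreated and 939 to 974 CPM with tau. The astrocyte sum was 29.6 to 36.7 CPM against 45.4 to 59.5 CPM. Over all libraries Aldh1l1 read 20.0 to 64.1 CPM and each other astrocyte marker 8.4 CPM or less. The granulocyte sum was 6.52 to 14.0 CPM against 14.3 to 21.5 CPM. It was almost only S100a8, as S100a9 and Mpo were at 0 in every library and Ly6g was counted in 1. The mast cell sum was 1.19 to 1.63 CPM against 0.333 to 0.57 CPM, and the neuronal sum 0.988 to 1.36 CPM against 0.443 to 0.785 CPM. In the second series of APOE3 the border macrophage sum lay the other way, at 2210 to 2550 CPM untreated and 2580 to 2830 CPM with tau. The astrocyte sum was higher with tau there too (22.9 to 28.1 CPM untreated, 31.0 to 40.2 CPM with tau). The granulocyte, mast cell and neuronal ranges overlapped there. The endothelial sum was 45.1 to 53.1 CPM untreated and 29.6 to 43.7 CPM with tau in that series, while its SAN ranges in APOE3 overlapped. In SAN libraries of APOE3S/S the border macrophage, astrocyte and mast cell ranges of both treatments overlapped. The granulocyte ranges did not (8.11 to 13.4 CPM untreated, 15.6 to 17.3 CPM with tau). Nor did the neuronal ranges (1.11 to 1.7 CPM untreated, 0.715 to 0.885 CPM with tau). The endothelial ranges were also apart (41.9 to 47.4 CPM untreated, 31.3 to 38.0 CPM with tau). The part of these markers in the changes of the 10 genes was not tested. The microglial sum in the SAN series of APOE3 was 5900 to 6330 CPM untreated and 5900 to 6280 CPM with tau. Over all libraries its largest parts were Csf1r (2020 to 3330 CPM) and C1qa (1660 to 4460 CPM), so it says little about the lower markers.

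No member differed between genotypes at an adjusted p of 0.05 in any treatment. APOE3S/S against APOE3 gave 0 of 10 in untreated cells (0.00719% of all genes called), 0 of 10 with tau (0.0144%) and 0 of 10 with amyloid (0.0%), and DESeq2 and limma-voom also gave 0 of 10 in each. With amyloid, 1673 genes had an unadjusted p under 0.05, and DESeq2 called 59 of all genes. Without the filter on low counts 2, 0 and 3 members passed, but those edgeR fits drew each gene's spread almost wholly to a shared one (Ptgs2 quasi-dispersion 0.746 in place of 9.21 in the fit of untreated and tau libraries, and 0.973 in place of 10.6 with amyloid), so these calls take little account of the difference between replicates. At an unadjusted p under 0.05 there were 3 members in untreated cells, 0 with tau and 1 with amyloid. Over all genes the numbers were 1077 and 300 of 13905, and 1673 of 13867 with amyloid. The 3 in untreated cells were Ptgs2 (-1.83 ± 0.62, adjusted p = 0.642), Ptgs1 (0.26 ± 0.08) and Ptger2 (-0.35 ± 0.11). Untreated Ptgs2 overlapped in the SAN series, at 1.59 to 15.3 CPM in APOE3 and 2.38 to 2.56 CPM in APOE3S/S. It did not overlap in the second series, at 3.82 to 20.5 CPM and 1.39 to 3.19 CPM. APOE3 replicates 3 and 4 were the highest of their series. The difference ran from -2.23 to -1.06 over the 22 fits without 1 library, none of which left out both.

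The tau effect itself did not pass as different between genotypes for any member (0 of 10, and 0.0% of 13905 genes by edgeR, with 284 genes at an unadjusted p under 0.05 and 0 genes by DESeq2 or limma-voom). The differences, APOE3S/S minus APOE3, were 1.33 ± 0.77 for Ptgs2, 0.40 ± 0.70 for Ptges and 0.45 ± 0.60 for Hpgd on the log2 scale. The standard error for Ptges is larger than its estimate, so a modest difference in either direction was not detectable here. The tau comparisons of one genotype and the genotype comparisons share libraries, so they are not independent of each other.

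Amyloid libraries, all of the SAN series, were set against the untreated libraries of that series. No member passed in APOE3 or in APOE3S/S, where edgeR called 0.0% of 13867 genes in each (1822 and 1181 genes at an unadjusted p under 0.05; DESeq2 called 289 and 2). Without APOE3S/S untreated replicate 1 or 2, edgeR called 322 or 321 genes for amyloid in APOE3, and without replicate 2 it called 425 in APOE3S/S, but no member passed in any of the 11 fits without 1 library. Among the members 2 in APOE3 and 4 in APOE3S/S had an unadjusted p under 0.05, and DESeq2 called 1 and 0. The member called by DESeq2 was Ptgs1, at 191, 216 and 214 CPM with amyloid and 142 to 164 CPM untreated in APOE3. All 3 amyloid libraries were above the untreated ones, and the edgeR log2 fold change was 0.45 ± 0.10 (adjusted p = 0.212; DESeq2 0.00664). Ptger4 read 52.2, 46.9 and 57.3 CPM with amyloid against 33.2 to 38.3 CPM untreated in APOE3 (0.53 ± 0.17, adjusted p = 0.238), also without overlap.

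Ptges in APOE3 amyloid libraries read 30.9, 30.9 and 26.7 CPM, just above the untreated range of 9.38 to 26.3 CPM, and Hpgd read 108, 87.3 and 84.5 CPM, below the untreated range of 114 to 215 CPM. Neither passed (0.88 ± 0.69 and -0.90 ± 0.55). In APOE3S/S, amyloid replicate 3 stood apart from the other 2 in 5 genes. It read 134 CPM for Ptges against 16.9 and 32.3, and 11.3 CPM for Hpgd against 98.1 and 53.2. It read 20.4 CPM for Ptgs2 against 2.10 and 2.69, 86.8 CPM for Hpgds against 159 and 140, and 68.0 CPM for Ptgr1 against 40.4 and 40.4. Each of these 5 values fell inside the span of the 6 SAN tau libraries. Its label is amyloid and it was kept in that group. Without it the APOE3S/S amyloid log2 fold change of Ptges was 0.47 in place of 1.76, and that of Ptgs2 0.02 in place of 1.80. The amyloid effect did not pass as different between genotypes for any member (0.0% of all genes called, 514 at an unadjusted p under 0.05).

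Tau and amyloid were compared within the SAN series. In APOE3, 4 of 10 genes passed, 2 higher and 2 lower with tau, where 7.33% of 14131 genes were called, 4.13% higher and 3.21% lower. Ptges was 5.60-fold higher with tau than with amyloid (log2 2.49 ± 0.60, adjusted p = 0.0245) and Ptgr1 1.95-fold higher (0.96 ± 0.19, adjusted p = 0.0128). Hpgd was 4.63-fold lower (-2.21 ± 0.51, adjusted p = 0.0207) and Hpgds 1.80-fold lower (-0.85 ± 0.17, adjusted p = 0.0128). The tau and amyloid libraries of APOE3 did not overlap for any of these 4, which follows in part from their having passed this test. Ptgs2, at 17.7 to 32.0 CPM with tau and 2.57 to 7.49 CPM with amyloid, gave 2.45 ± 0.76 and narrowly missed (adjusted p = 0.0589; DESeq2 0.0448). None of the 4 calls was kept without APOE3 amyloid replicate 1 or 3 or without APOE3 tau replicate 6. Ptges and Hpgd also lost theirs without amyloid replicate 2 or tau replicate 5, Hpgds without tau replicate 5, and Hpgd without tau replicate 4 (adjusted p up to 0.106).

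In APOE3S/S no member passed for tau against amyloid, where 0.149% of 14131 genes were called. At an unadjusted p under 0.05 there were 4 members of 10 and 1328 of all genes. DESeq2 called 1 member, Hpgd, and limma-voom 0. Over all genes 21 were called with every library kept, and 0 to 441 in the fits without 1 library. Leaving out amyloid replicate 3 gave 4 calls of 10 members. These were Ptgs2 (3.11, adjusted p = 0.028), Ptges (2.66, adjusted p = 0.0075), Hpgds (-0.78, adjusted p = 0.00296) and Hpgd (-2.67, adjusted p = 0.00137). That library decides the APOE3S/S result, which is given both ways for this reason. It was singled out because its values of these same genes lay inside the span of the SAN tau libraries. The calls without it follow in part from that choice and are no separate support for a difference.

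**Figure D4:**
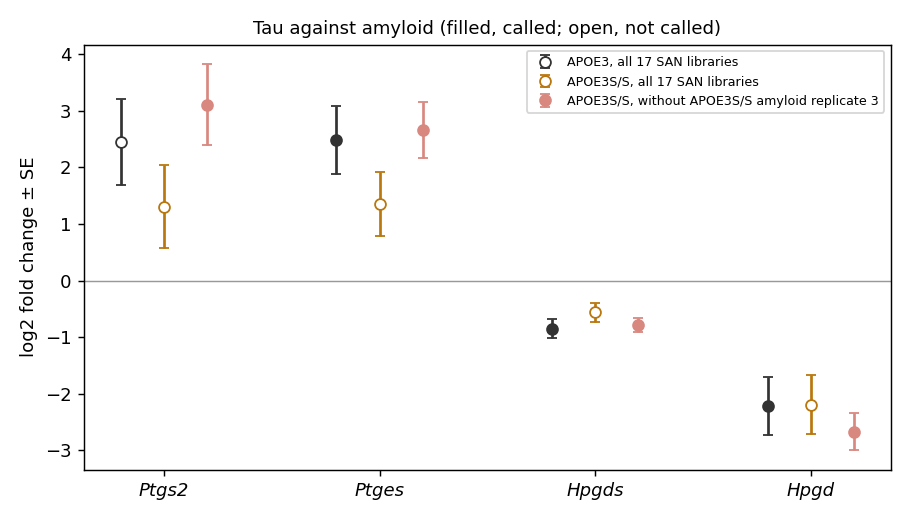
Log2 fold change of tau against amyloid in the SAN series for 4 genes, with standard errors, in APOE3 and in APOE3S/S with and without APOE3S/S amyloid replicate 3; filled points passed an adjusted p of 0.05. Without that library the APOE3S/S value of Ptges moves from 1.35 to 2.66 and that of Ptgs2 from 1.31 to 3.11. That library was singled out by its values of these same genes.

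A list of 45 further genes of arachidonic acid release and of prostanoid and leukotriene synthesis, transport and reception was also read, of which 31 were tested in the tau comparisons. In APOE3, 4 were higher and 3 lower with tau, and in APOE3S/S 1 was higher and 3 lower, where 14.8% and 3.28% of all tested genes were called; the list medians were -0.01 and -0.02, close to those of all genes. Among the lipid-releasing enzymes, Daglb (which makes the endocannabinoid precursor of arachidonic acid) fell by 1.02 ± 0.15 in APOE3 (adjusted p = 0.0002) and by 0.86 ± 0.17 in APOE3S/S (adjusted p = 0.0121) on the log2 scale. Mgll, the lipase that frees arachidonic acid from that precursor, fell by 0.72 ± 0.18 (adjusted p = 0.00809) and by 0.72 ± 0.20 (adjusted p = 0.0485). The lysosomal phospholipase Pla2g15 fell by 0.54 ± 0.12 (adjusted p = 0.00348) and by 0.48 ± 0.13 (adjusted p = 0.0485). In SAN libraries of APOE3, Daglb went from 122 to 157 CPM untreated to 44.9 to 57.0 CPM with tau, and Mgll from 143 to 279 CPM to 85.4 to 119 CPM. In the second series alone the Mgll and Pla2g15 values did not pass in either genotype, and Daglb passed in APOE3 (-0.63 ± 0.12, adjusted p = 0.0151) but not in APOE3S/S (-0.49 ± 0.13).

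On the transport and leukotriene side, the cysteinyl leukotriene receptor Cysltr1 rose by 0.93 ± 0.15 in APOE3 (adjusted p = 0.00038) and 0.65 ± 0.17 in APOE3S/S (adjusted p = 0.0388). It was 19.0 to 29.4 CPM untreated and 52.3 to 60.7 CPM with tau in SAN libraries of APOE3, and 24.2 to 33.5 CPM against 42.1 to 46.5 CPM in the second series. This rise passed in APOE3 in both series taken alone (1.29 ± 0.23 and 0.60 ± 0.12). Slco2a1, the prostaglandin uptake carrier, rose by 2.27 ± 0.57 in APOE3 (adjusted p = 0.00883), from a very low level: no library exceeded 1.98 CPM. Alox5 (0.29 ± 0.09, adjusted p = 0.0395) and Ggt5 (0.96 ± 0.31, adjusted p = 0.0373) also passed in APOE3, and each lost its call in 8 or more of 22 fits without 1 library. In APOE3S/S the calls of Mgll, Pla2g15 and Cysltr1 were lost in 15, 12 and 7 such fits, and that of Daglb without untreated replicate 1.

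The prostacyclin receptor Ptgir followed the title series. It was 19.3 to 21.0 CPM untreated and 37.5 to 39.1 CPM with tau in SAN libraries of APOE3, and 12.3 to 18.1 CPM against 10.7 to 15.4 CPM in the second series. Its tau effect was 1.13 ± 0.23 higher in the SAN series (adjusted p = 0.00536), the 1 gene called higher among the 33 list genes tested there. Daglb (-0.80 ± 0.21) and Pla2g15 (-0.68 ± 0.18) were the 2 called with a more negative tau log2 fold change in the SAN series. Those calls were lost in 8 and 10 of 22 fits without 1 library. With tau against amyloid in APOE3, Ptgir (0.67 ± 0.15), Pla2g4a, the phospholipase that releases arachidonic acid (0.60 ± 0.13), and Alox12 were higher, and Cyp4f18, Daglb and Pla2g15 lower. The other 5 calls were lost in 2 to 10 of 17 fits without 1 library, and that of Alox12, with only 101 counts over all 28 libraries, in 4 of the 15 fits in which it was tested. In APOE3S/S, Cyp4f18 alone was called for tau against amyloid (-1.05 ± 0.18, adjusted p = 0.0258). That call was lost in 4 of 17 fits, without amyloid replicate 1 or 2 or tau replicate 4 or 6 of that genotype (adjusted p up to 0.209).

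Genes with the most similar profile to the 3 leading members were sought over the 10 means of group by title series, among 13595 genes, with Pearson's r on log2 CPM. The means share libraries' title series and depth, so these values are a description. For Ptges the nearest were Nfkbie (0.991), Rnd1 (0.990) and Pde4b (0.989). For Hpgd they were Slco2b1 (0.989), Enpp1 (0.988) and Tpbgl (0.987), and for Ptgs2 Abcc1 (0.987), Slc7a11 (0.985) and Dlat (0.952).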

How the data were processed

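The labels describe total RNA of primary mouse microglia, extracted on columns and made into 3′ QuantSeq forward libraries. The authors deposited 2 tables of whole-number gene counts; per the submitters' processing notes GRCm38 was the build and DESeq2 1.38.3 was used, and no aligner, counter or strand setting is named there. Each table had 60976 rows, of which 6360 held no number; 25 rows without a gene name held 0% of the counts, 189 repeated symbols were left out, and the 5 libraries in both tables were identical there. No 2 replicates of a group were identical.

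Counts were fitted with edgeR 4.0.16 (TMM scaling, filterByExpr, quasi-likelihood F test) in R 4.3.3. P-values were adjusted by Benjamini-Hochberg over all genes tested, with calls at 0.05, for 13 comparisons. Tau comparisons used 22 libraries with title series as a term, the test between series used its interaction, and amyloid comparisons used SAN libraries (11, or 17 with tau). CPM divide a count by the library total. The fits were tested on simulated data. Alternatives were RLE scaling, no count filter, DESeq2 1.42.0, limma-voom (limma 3.58.1), each title series alone, leaving out each library, and a replicate block. Coordinates of genes are from GENCODE on GRCm38. The 10 genes, the further list, the motifs and the markers were chosen with earlier results of these data known. Named genes were the 10 members, list genes that were called or belong to a counted receptor class, and the 3 genes most correlated with Ptgs2, Ptges and Hpgd. The spread between replicates limits all values; depth was 14464761 to 27220695 counts per library.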

Additional observations from a re-analysis of the deposited data

Results flagged for a closer look

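For each of the 10 genes, groups of 4 to 10 libraries were examined for a single library far from the others, with both title series pooled. The amyloid groups, of 3 libraries each, were too small for this, so APOE3S/S amyloid replicate 3 was not covered. Among 40 sets of a gene and a group 1 such library was found, where chance alone gives about 1 in 20 sets. Untreated APOE3S/S replicate 1 read 20.3 CPM for Ptger2, against 12.6 to 13.3 CPM in the other 3 libraries of that group.

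The tau effect differed between the title series, by the test of the difference itself, for 4 genes in APOE3 and 3 in APOE3S/S. On the log2 scale, SAN minus second series, Hpgd differed by -2.21 in APOE3 and by -2.43 in APOE3S/S. Hpgds differed by -0.96 and by -1.02, and Ptgr1 by 0.83 and by 1.34. Ptger4 differed by 0.78 in APOE3. For Ptgr1 in APOE3S/S the effect ran in opposite directions in the 2 series, with a rise of 0.84 in the SAN series and a value of -0.50 in the second. The summed border macrophage markers, most of the sum being Pf4 and Mrc1, also differed between the series (894 to 1400 against 2210 to 3370 CPM). Their part in these differences was not tested.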

How the results depend on the processing

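RLE scaling kept the direction and side of the threshold of every result it was run on. Among results for single genes, DESeq2 added 5 calls and did not keep 1. DESeq2 called 1 member in place of 0 for amyloid in APOE3 and for tau against amyloid in APOE3S/S, and over all genes 950 in place of 456 for tau in APOE3S/S (limma-voom 697) and 159 in place of 21 for tau against amyloid in APOE3S/S. Between the title series it called 1172 in place of 758 genes in APOE3 and 434 in place of 132 in APOE3S/S. For tau against amyloid in APOE3 it called 1596 in place of 1036, and for untreated cells of the 2 genotypes 5 in place of 1 (limma-voom 3). Limma-voom turned Ptgs2 for amyloid in APOE3 to 0.30 (from -0.29).

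Without the low-count filter members called were 5 for tau in APOE3S/S, 1 for its difference between genotypes (Ptgs2) and 2 between untreated genotypes. They were 5 for the series difference in APOE3S/S, 3 and 4 for amyloid in APOE3 and APOE3S/S, 2 for the amyloid difference, 3 between genotypes with amyloid and 4 for tau against amyloid in APOE3S/S. Over all genes the counts were then 1441, 149, 343, 769, 1008, 665, 75, 739 and 487 in that order, and 42 between genotypes with tau, 1399 for the series difference in APOE3 and 1892 for tau against amyloid in APOE3. In the fit of untreated and tau libraries 28368 genes then entered in place of 13905, and the prior degrees of freedom went from 4.86 to infinity, so a gene's own spread had no weight. They also went to infinity in the series difference (from 5.83) and in tau against amyloid (from 4.89), and from 4.34 to 451 for amyloid.

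The SAN series alone called 5 members for tau in APOE3S/S, and reversed the Ptges (-0.26) and Hpgd (-0.02) differences of the tau effect between genotypes and untreated Ptges between genotypes (0.25). The second series alone called 1 member for tau in each genotype and 372 in place of 2064 genes in APOE3. It reversed Ptgr1 in APOE3 (-0.06) and Hpgds (0.12), Ptgr1 (-0.50) and Alox5ap (-0.07) for tau in APOE3S/S, and untreated Hpgd between genotypes (0.14).

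Leaving out each library, members called ranged from 3 to 6 for tau in APOE3 and 0 to 3 in APOE3S/S. For the series difference they ranged from 2 to 4 in APOE3 and 0 to 3 in APOE3S/S, and for tau against amyloid from 0 to 5 and 0 to 4. Directions turned for tau in APOE3S/S, Alox5ap from -0.03 to 0.24 and Ptgr1 from -0.06 to 0.29, and for Ptger4, from -0.18 to 0.44, in the APOE3S/S series difference. Ptges ranged from -0.76 to 0.32 between untreated genotypes, -0.32 to 0.77 in the tau difference, -0.41 to 2.13 in the amyloid difference (0.88 with every library) and -0.17 to 1.58 between genotypes with amyloid (1.13), the last pair turned by APOE3S/S amyloid replicate 3. Ptgs2 for amyloid in APOE3 ranged from -0.75 to 1.31. All genes called ranged from 34 to 836 for tau in APOE3S/S, 4 to 1474 for the series difference in APOE3S/S, 58 to 1608 and 0 to 441 for tau against amyloid in APOE3 and APOE3S/S, 0 to 322 and 0 to 425 for amyloid, and 0 to 111 between genotypes with amyloid.

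Title numbers are shared between genotypes, but over 13 same-numbered pairs the correlation of deviations ran from -0.127 to 0.193, over 0.1 in 2 pairs, and 3 of 13 correlated best with their own number, so the numbers were not taken to pair the samples. With the number as a replicate block no member was called between genotypes in any treatment; untreated Ptges read 0.01 in place of -0.40, and genes called with amyloid were 198 in place of 0. Groups held 2 to 3 libraries per series. Depth limits the receptors with fewer than 10 counts in all.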
